A study of Mus musculus with 6 samples.

Results

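The transcripts described here are those of 44 genes that carry a cell through its division cycle, taken from RNA sequencing of WT and Nlk-KO Neuro2a (N2a) cells. Members were the loci of the deposited table whose gene name is on a fixed list, and a gene with more than 1 locus was taken at the locus with the highest mean value. They make up 44 of 26657 loci, with 18 genes of G1 control, 13 of DNA replication and 13 of mitosis. Of these, 42 passed a minimum mean of 0.5 FPKM (fragments mapped to a transcript, corrected for its length and for the size of the library) and were tested along with 12667 loci in all. The genes below the minimum were Ccnd2 and Cdk6.

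N2a is a mouse neuroblastoma line, and its cells are polyploid. The 3 WT libraries came from isogenic WT controls, and the 3 Nlk-KO libraries from N2a cells in which a Cas9 nickase and paired guides had been aimed at Nlk, the gene of nemo-like kinase. The knockout lines were grown from single cells and kept for undetectable Nlk protein. The labels call the 3 libraries of each genotype biological replicates. More than 1 such clone was made, and the labels do not say which clone gave which library or whether libraries came from separate cultures. The p-values thus rest on how far the 6 libraries scatter, and that scatter may be technical in part or whole. In bulk RNA, fewer cells in a phase of the cycle and less RNA per cell cannot be told apart.

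The cell cycle is driven by cyclins, whose levels rise and fall, and by the cyclin-dependent kinases they activate. D-type cyclins with Cdk4 or Cdk6 phosphorylate the retinoblastoma protein, which releases E2F factors to switch on the genes of DNA synthesis. Licensing factors load the Mcm helicase on origins before S phase, and in mitosis the spindle checkpoint holds the anaphase-promoting complex until chromosomes are attached. Nemo-like kinase itself is a serine/threonine kinase best known for phosphorylating TCF/LEF factors of the Wnt pathway.

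The targeted transcript checked the labels. Nlk, on chromosome 11, stood at 15.8, 16.6 and 16.1 FPKM in WT and at 6.78, 7.01 and 6.83 FPKM in Nlk-KO libraries. Every Nlk-KO library lay below every WT library, with means of 16.2 ± 0.390 and 6.88 ± 0.119 FPKM (SD, n = 3 each). On the scale used throughout, log2(FPKM + 0.1), the difference of Nlk-KO minus WT was -1.22 with a standard error (SE) of 0.0373 (limma, Benjamini-Hochberg adjusted p = 1.36e-06). Part of the Nlk transcript was still measured in the knockout cells.

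Among the neuroblast markers that check the cell type, Hand2 stood at 360 to 406 FPKM and Phox2a at 123 to 152 FPKM over the 6 libraries. Of 16 neuroblast markers tested, 1 was called higher and 7 lower in Nlk-KO cells (50% called, against 37.1% of all loci tested). In 12 of the 16 (75%) the libraries of the genotypes did not overlap, against 51.0% of all loci tested. Th, tyrosine hydroxylase of catecholamine synthesis, had the largest difference, at 4.20, 4.15 and 4.21 FPKM in WT and 0.337, 0.586 and 0.323 FPKM in Nlk-KO libraries, or -3.09 on the log2 scale (limma adjusted p = 2.92e-05). Of the 8 fibroblast markers 2 were tested, Pdgfra and Fbln1, and both were called higher, at 1.06 and 0.48, while Col1a1, Col3a1, Dcn and Lum were near 0 FPKM. By level, and not by difference, the less abundant of the 2 tested averaged 1.31 FPKM over the 6 libraries and the more abundant 175 FPKM. Of 6 immune markers 1 was tested, at a mean of 379 FPKM, and of 7 glia markers 2, at means of 2.41 and 3.74 FPKM. Such a mean is that of a locus, which may hold several genes, so its reads need not be those of the marker. None of these immune and glia markers was called. The part of these marker changes in the cell cycle values was not tested. Total reads are unknown, and steps of whole reads at low loci put the depth of the libraries at 0.979 to 1.29 of that of WT replicate 1.

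Cell cycle transcripts as a whole sat at about the same level in both genotypes. Of the 42 members tested, 6 were called higher and 5 lower in Nlk-KO cells (limma, adjusted p under 0.05), which is 26.2%, against 37.1% of all loci tested (18.6% higher and 18.5% lower) and 38.3% of those averaging 5 FPKM or more, as every tested member does. Higher were Ccnd3, Cdkn2c, E2f1, Pcna, Bub1 and Bub1b, and lower were Ccnd1, E2f2, Gmnn, Birc5 and Cdc20. The median difference of the members was -0.04, beside -0.01 over all loci, and their differences ran from -0.44 to 0.35. In 33 of 42 members (78.6%) the difference was under 0.2 in size, as it was in 63.2% of all loci. Rescaling the libraries to the same summed FPKM over named loci left 0 of 42 members called, and over all loci 568 higher and 355 lower in place of 2356 and 2341.

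**Figure D1:**
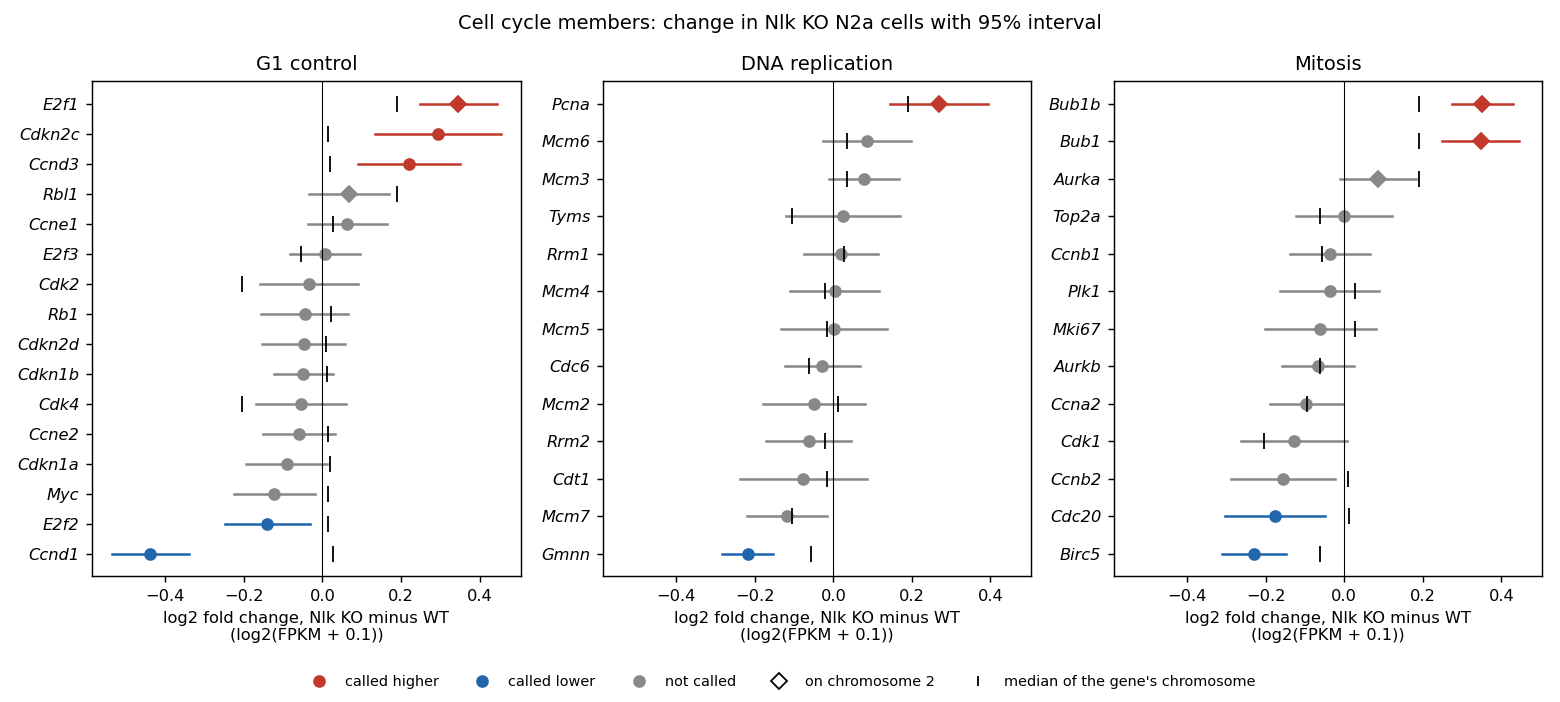
Difference of Nlk-KO minus WT on the log2(FPKM + 0.1) scale for the 42 tested members, with 95% confidence intervals from limma (3 libraries per genotype), grouped as G1 control, replication and mitosis, and coloured by whether the member was called. Points lie between -0.44 (Ccnd1) and 0.35, and most lie close to 0.

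The libraries of the 2 genotypes did not overlap in 16 of 42 members (38.1%), against 51.0% of all loci tested. In 6 of the 16 the Nlk-KO libraries were the higher ones, and in 10 the lower ones. Myc, Mcm7, Ccna2, Ccnb2 and Aurkb did not overlap between genotypes but missed the threshold. For the 31 members not called, the 95% interval of the difference reached no further from 0 than 0.29, and for 25 of them no further than 0.2.

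Among the genes of G1 control, D-type cyclins moved in opposite directions. Ccnd1, cyclin D1, the partner of Cdk4 that links growth signals to the cycle, stood at 83.2, 85.0 and 79.7 FPKM in WT and at 61.9, 58.2 and 62.7 FPKM in Nlk-KO libraries. All 3 Nlk-KO libraries lay well below the lowest WT library, and Ccnd1 had the largest difference of all members in size. Its mean went from 82.6 ± 2.68 to 61.0 ± 2.39 FPKM (SD, n = 3 each), a difference of -0.44 with an SE of 0.0418 (limma, adjusted p = 0.000253), or -26.2%.

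Ccnd3, cyclin D3, stood at 20.0, 21.2 and 18.3 FPKM in WT and at 22.5, 23.3 and 23.5 FPKM in Nlk-KO libraries. The Nlk-KO libraries were all higher, though WT replicate 2 came close to the lowest of them, and the difference was 0.22 (SE 0.0553, limma adjusted p = 0.0183). Without Nlk-KO replicate 2 the adjusted p of Ccnd3 was 0.0544, and without replicate 3 it was 0.0603. Ccnd2, cyclin D2, was listed at 0 in the WT libraries and reached 0.0053 FPKM at most in an Nlk-KO library. D-type cyclin transcripts in these cells were thus those of Ccnd1 and Ccnd3, the former at the higher level per length.

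The kinase partners of the D-type cyclins were just as uneven in level. Cdk4 was the most abundant member of all, at 263, 282 and 257 FPKM in WT and 259, 250 and 264 FPKM in Nlk-KO libraries. These ranges overlapped, with a difference of -0.05 (limma adjusted p = 0.419). Cdk6 was detected in 1 library of each genotype, at 0.0125 FPKM in WT and 0.0257 FPKM in Nlk-KO, and was not tested.

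**Figure D2:**
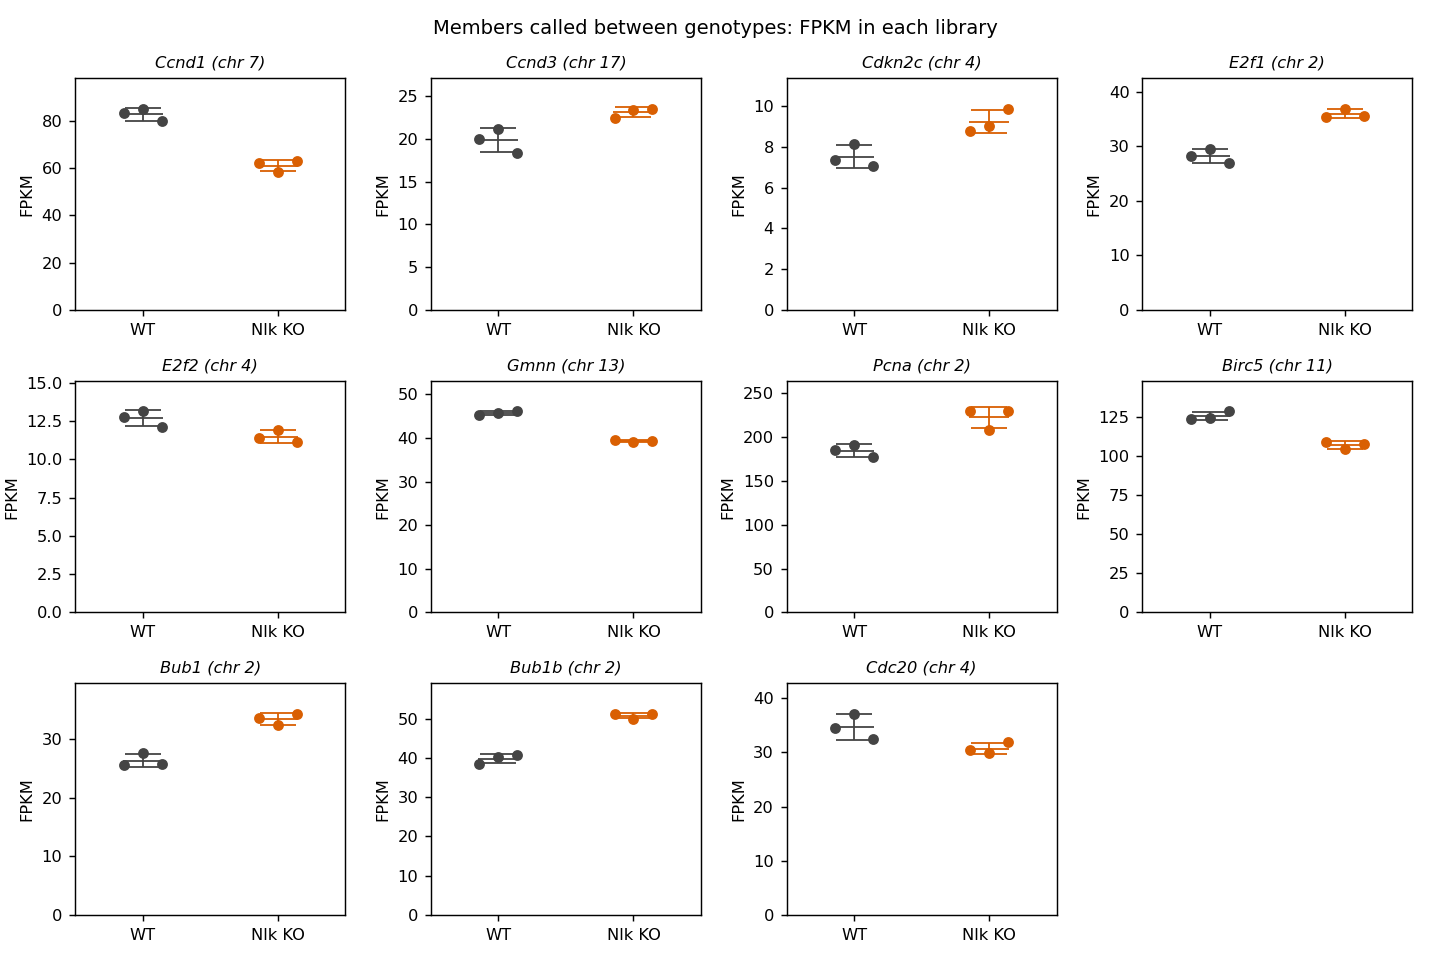
FPKM in each library (points, WT and Nlk-KO replicates 1 to 3) and genotype means (bars) for the 11 members called. In Ccnd1 the 3 Nlk-KO points lie between 58.2 and 62.7 and the WT points between 79.7 and 85.0; the genotypes do not overlap in any of the 11.

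Of the 4 inhibitors of cyclin-dependent kinases among the members, 1 was called. Cdkn2c, which encodes p18, an inhibitor of Cdk4 and Cdk6, stood at 7.34, 8.15 and 7.06 FPKM in WT and at 8.79, 9.03 and 9.88 FPKM in Nlk-KO libraries. It was higher in every Nlk-KO library, by 0.29 (SE 0.0683, limma adjusted p = 0.0134). Cdkn1a, which encodes p21, the inhibitor induced by p53, stood at 19.6, 20.7 and 20.0 FPKM in WT and at 19.1, 19.6 and 17.9 FPKM in Nlk-KO libraries. Here the genotypes met at the edge of their ranges, and the difference of -0.09 had a 95% interval from -0.19 to 0.01 (limma adjusted p = 0.143). Cdkn1b (p27) and Cdkn2d (p19) both differed by -0.05 and were not called.

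Of the E2F factors measured, E2f1 and E2f2, both activators of S phase genes, were called in opposite directions. E2f1 stood at 28.2, 29.6 and 27.0 FPKM in WT and at 35.4, 36.9 and 35.6 FPKM in Nlk-KO libraries. The Nlk-KO libraries were all higher, by 0.35 (SE 0.0415, limma adjusted p = 0.000751), but the E2f1 locus also holds Necab3, so that the reads of these genes cannot be told apart. E2f2 stood at 12.7, 13.2 and 12.1 FPKM in WT and at 11.4, 11.9 and 11.1 FPKM in Nlk-KO libraries. It was lower in every Nlk-KO library but by little, -0.14 (SE 0.0457, limma adjusted p = 0.0481). The E2f2 call was lost without WT replicate 1 (adjusted p = 0.132) or replicate 2 (0.143), and in the knockout without replicate 1 (0.116) or replicate 3 (0.142). It was also lost with no minimum on FPKM (adjusted p = 0.0716) and under median-ratio scaling (0.0531). E2f3, the remaining activator on the list, differed by 0.01.

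Among the other genes around the G1 to S transition none was called. Ccne1 and Ccne2, the E-type cyclins that activate Cdk2, differed by 0.06 and -0.06, and Cdk2 by -0.04. Rb1, the retinoblastoma gene, differed by -0.04, and its relative Rbl1 (p107) by 0.07. Myc, a factor that drives growth and G1 entry, stood at 135, 139 and 126 FPKM in WT and at 122, 121 and 124 FPKM in Nlk-KO libraries. All 3 Nlk-KO libraries were below the WT libraries, with a difference of -0.12 and a 95% interval from -0.23 to -0.02 (limma adjusted p = 0.0653). Without WT replicate 3 the adjusted p of Myc was 0.0118. In all, 3 of 16 tested genes of G1 control were called higher and 2 lower (31.2%, against 37.1% of all loci), with a median of -0.05. Without Nlk-KO replicate 3, 2 were called higher and 1 lower.

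Replication genes stayed close together, apart from Pcna and Gmnn. Of the 13 genes, 1 was called higher and 1 lower (15.4%, against 37.1% of all loci), and their median difference was 0.00. Gmnn, which encodes geminin, the inhibitor that keeps Cdt1 from licensing origins again after S phase starts, stood at 45.3, 45.8 and 46.2 FPKM in WT and at 39.5, 39.1 and 39.4 FPKM in Nlk-KO libraries. These were among the tightest values of any member, and each Nlk-KO library was lower. The difference was -0.22 (SE 0.0276, limma adjusted p = 0.000962), or -14.1%. Its target Cdt1 differed by -0.08 and the licensing factor Cdc6 by -0.03, neither called, although the adjusted p of Cdt1 was 0.0246 without WT replicate 3.

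Pcna, the sliding clamp of DNA polymerase, stood at 185, 191 and 177 FPKM in WT and at 229, 208 and 230 FPKM in Nlk-KO libraries. The Nlk-KO libraries were all higher, with replicate 2 nearest to WT, and the difference was 0.27 (SE 0.0532, limma adjusted p = 0.00692). The Pcna locus also holds Tmem230, so this value covers both genes.

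The Mcm2 to Mcm7 genes encode the 6 subunits of one helicase ring. They stood between 40.1 and 105 FPKM over all libraries, with differences from -0.12 (Mcm7) to 0.09 (Mcm6). Of the 6, 0 were called, against 37.1% of all loci tested. Mcm2 differed by -0.05, Mcm3 by 0.08, and Mcm4 and Mcm5 by 0.00. Mcm7 was lower in every Nlk-KO library, and its adjusted p of 0.0723 became 0.0481 without Nlk-KO replicate 3. The genes of nucleotide supply were not called either, with differences of 0.02 for Rrm1 and -0.06 for Rrm2, the subunits of ribonucleotide reductase, and 0.02 for Tyms, thymidylate synthase.

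Mitotic genes gave 2 calls in each direction among 13 (30.8%, against 37.1% of all loci), with a median of -0.06. Bub1, a kinase of the spindle checkpoint, stood at 25.7, 27.6 and 25.7 FPKM in WT and at 33.7, 32.4 and 34.4 FPKM in Nlk-KO libraries. Bub1b, which encodes BubR1 of the same checkpoint, stood at 38.6, 40.2 and 40.7 FPKM in WT and at 51.2, 49.99 and 51.3 FPKM in Nlk-KO libraries. Both genes were higher in every Nlk-KO library. Both differences were 0.35 (SE 0.0417 and 0.0331, limma adjusted p = 0.000751 and 0.000237).

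Cdc20, the activator of the anaphase-promoting complex that the checkpoint proteins hold back, stood at 34.5, 37.2 and 32.4 FPKM in WT and at 30.3, 29.9 and 31.9 FPKM in Nlk-KO libraries. The Nlk-KO libraries were lower, but the closest libraries nearly met, and the difference was -0.18 (SE 0.0542, limma adjusted p = 0.0398). The call for Cdc20 ended when any 1 library other than WT replicate 3 was left out, with adjusted p-values from 0.0509 to 0.109, and also with no minimum on FPKM (0.0614). Birc5, survivin of the chromosomal passenger complex, stood at 124, 124 and 129 FPKM in WT and at 109, 105 and 108 FPKM in Nlk-KO libraries. Its Nlk-KO libraries were clearly apart from WT, by -0.23 (SE 0.0345, limma adjusted p = 0.00215).

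Mki67, whose protein is the usual marker of cycling cells, stood at 49.7, 51.1 and 56.1 FPKM in WT and at 51.0, 52.5 and 46.8 FPKM in Nlk-KO libraries. The genotypes overlapped, and the difference of -0.06 had a 95% interval from -0.20 to 0.08 (limma adjusted p = 0.467). Top2a, the topoisomerase that untangles sister chromosomes, differed by 0.00 with both means at 163 FPKM. None of the cyclins of G2 and mitosis was called, with differences of -0.10 for Ccna2, -0.04 for Ccnb1 and -0.16 for Ccnb2, and neither was their kinase Cdk1, at -0.13. With chromosome medians removed these differences were -0.0021, 0.0193 and -0.17 for the cyclins and 0.0757 for Cdk1, and none was called. Ccnb2 did not overlap between genotypes, and its adjusted p of 0.0662 became 0.0213 without WT replicate 3. The mitotic kinases Plk1, Aurka and Aurkb differed by -0.04, 0.09 and -0.07, and without WT replicate 2 the adjusted p of Aurka was 0.0358.

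**Figure D3:**
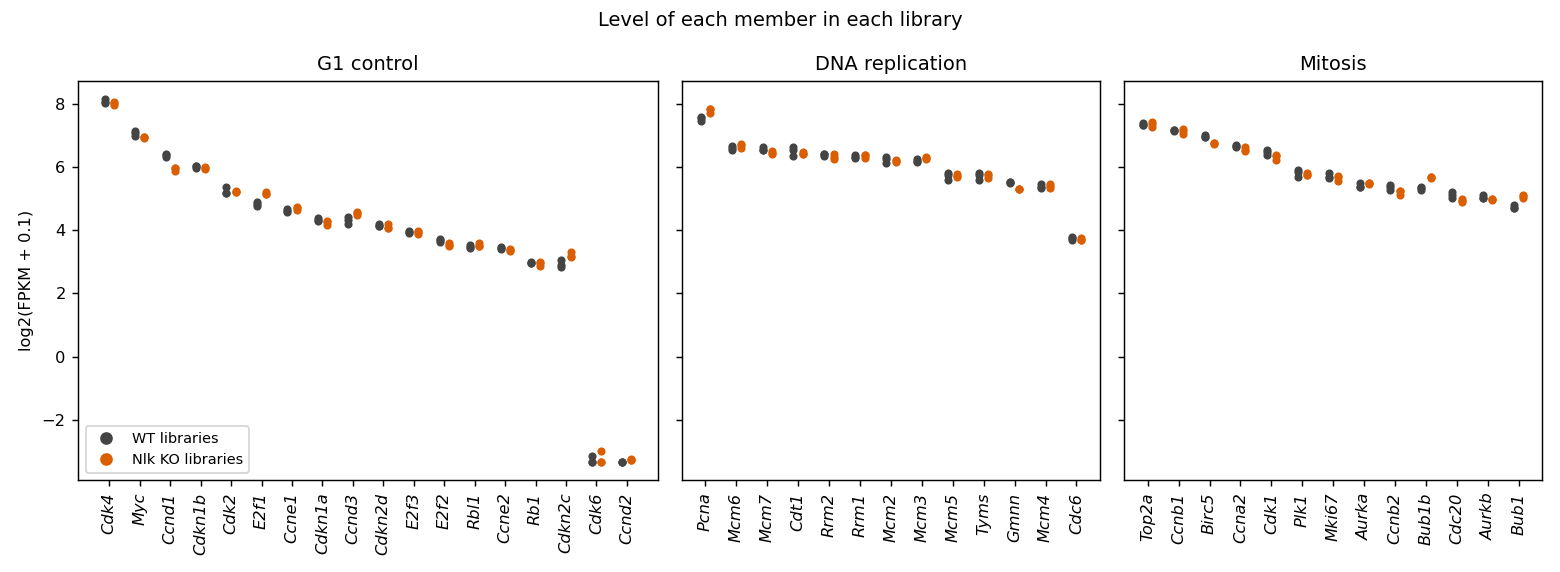
Levels of the members in WT and Nlk-KO cells on a logarithmic scale, by group (G1 control, replication and mitosis). Mean levels of the tested members run from Rb1, near 7.64 FPKM, to Cdk4, near 263 FPKM.

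Part of the division between higher and lower members followed chromosomes. On chromosome 2, 562 of 1042 loci tested (53.9%) were called higher and 61 lower, with a median difference of 0.19, and on chromosome 10, 326 of 646 (50.5%) were called lower, with a median of -0.20. The 6 members on chromosome 2 are E2f1, Rbl1, Pcna, Aurka, Bub1 and Bub1b. All 6 lay above 0, with a median of 0.31, and 4 of them were called higher, so that 4 of the 6 members called higher were on this chromosome. The 3 members on chromosome 10 are Cdk1, Cdk2 and Cdk4, and 0 of them were called. Of the 33 tested members elsewhere, 2 were called higher (Ccnd3 and Cdkn2c) and 5 lower. Some of these other chromosomes were shifted too, though less. On chromosome 5, 32.4% of loci tested were called lower (median -0.1055), and on chromosome 3, 31.4% (median -0.0951). Chromosome 13, with Gmnn, had 24.2% called lower, and chromosome 11, with Birc5, 23.1%, beside 18.5% of all loci. Mcm7 is on chromosome 5 and Ccna2 on chromosome 3.

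With the median of each gene's own chromosome taken off, the members called stayed at 11. E2f1, Bub1 and Bub1b then differed by 0.16 each and were still called, whereas Pcna differed by 0.08 with an adjusted p of 0.292 and Cdk2 became called higher at 0.17 (limma adjusted p = 0.0482). Gmnn and Birc5 then differed by -0.16 and -0.17 and were still called, and Mcm7 differed by -0.0126. The genotypes cannot be told apart from clones or chromosome numbers in these lines, and gene copies were not measured.

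Promoters are shown for mitotic members called in opposite directions. RefSeq windows from 250 bases before to 50 after the start (GRCm38.p6) matched 35 of the 44 members. Ccnd2, Ccne2, Ccnd1, Ccna2, Aurkb, Rb1, Myc, Mcm4 and Gmnn had no matched window. Many mitotic genes are known to be controlled through the cell cycle genes homology region (CHR) by the DREAM and MuvB complexes, often with CCAAT boxes bound by NF-Y, and many replication genes through E2F sites. The windows were searched on both strands for the CHR, spelled TTTGAA in its usual form and in its rarer form TTCGAA, for the NF-Y box, spelled CCAAT, for E2F sites, spelled TTTCGCGC, TTTGGCGC, TTTCCCGC or TTTGCCGC, and for the TCF/LEF site, which was searched for as ATCAAAG. Matches may overlap. The 250 bases before the start are given 5' to 3' on the gene's strand, with matches in capitals. They are Bub1 (minus strand, chr2:127831860-127832109), Bub1b (plus strand, chr2:118597961-118598210), Cdc20 (minus strand, chr4:118437344-118437593) and Birc5 (plus strand, chr11:117848987-117849236).
Bub1: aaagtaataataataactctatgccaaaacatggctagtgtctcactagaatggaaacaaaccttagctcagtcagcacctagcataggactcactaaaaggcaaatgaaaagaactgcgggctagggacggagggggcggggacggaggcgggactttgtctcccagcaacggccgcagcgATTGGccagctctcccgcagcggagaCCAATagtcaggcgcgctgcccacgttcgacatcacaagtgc
Bub1b: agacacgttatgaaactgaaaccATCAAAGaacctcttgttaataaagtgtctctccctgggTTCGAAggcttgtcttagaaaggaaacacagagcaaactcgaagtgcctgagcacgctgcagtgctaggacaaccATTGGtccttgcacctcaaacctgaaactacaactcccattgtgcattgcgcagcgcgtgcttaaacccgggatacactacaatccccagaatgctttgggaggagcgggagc
Cdc20: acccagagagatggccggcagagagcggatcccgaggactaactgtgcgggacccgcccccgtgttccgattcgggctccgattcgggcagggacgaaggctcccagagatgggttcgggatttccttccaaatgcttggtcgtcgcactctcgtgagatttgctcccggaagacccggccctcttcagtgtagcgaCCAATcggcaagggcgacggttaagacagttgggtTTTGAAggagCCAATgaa
Birc5: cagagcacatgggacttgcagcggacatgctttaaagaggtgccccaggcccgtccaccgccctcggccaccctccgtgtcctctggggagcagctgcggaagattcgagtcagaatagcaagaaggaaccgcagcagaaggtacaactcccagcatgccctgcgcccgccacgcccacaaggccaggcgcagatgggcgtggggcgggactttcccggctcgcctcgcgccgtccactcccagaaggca

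Positions are counted from the start of transcription. Bub1 has CCAAT boxes at -68 and -42, and Cdc20 has them at -53 and -8 around a CHR at -18. Bub1b has a CHR at -188, a CCAAT box at -113 and a TCF/LEF match at -227. The Birc5 window before the start holds none of these letters. Past the start, Bub1 has a CHR match at 15 (chr2:127831831-127831854, minus strand) and Bub1b at 41 (chr2:118598242-118598260, plus strand), given here because these are the checkpoint genes that were higher.
Bub1, CHR: cgcggggaaTTCGAAtcgccggcg
Bub1b, CHR: gacgttaaaTTTGAAactt

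The CHR letters therefore occur in both Bub1 and Bub1b, which were higher in Nlk-KO cells, and in Cdc20, which was lower. Over the whole windows, a CHR was found in 9 of 11 mitotic members (81.8%), 2 of 13 of G1 control and 2 of 11 of replication, against 21.7% of all gene symbols. E2F sites were found in 6 of 11 replication members (54.5%), 4 of 13 of G1 control and 1 of 11 mitotic members, against 2.61% of all symbols. CCAAT boxes were found in 10 of 11 mitotic, 7 of 13 G1 control and 8 of 11 replication members, against 41.1%. The TCF/LEF letters were found in 2 of 35 members, Bub1b and Cdk4, against 4.29% of all symbols. These are matches of letters, and binding was not measured.

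**Figure D4:**
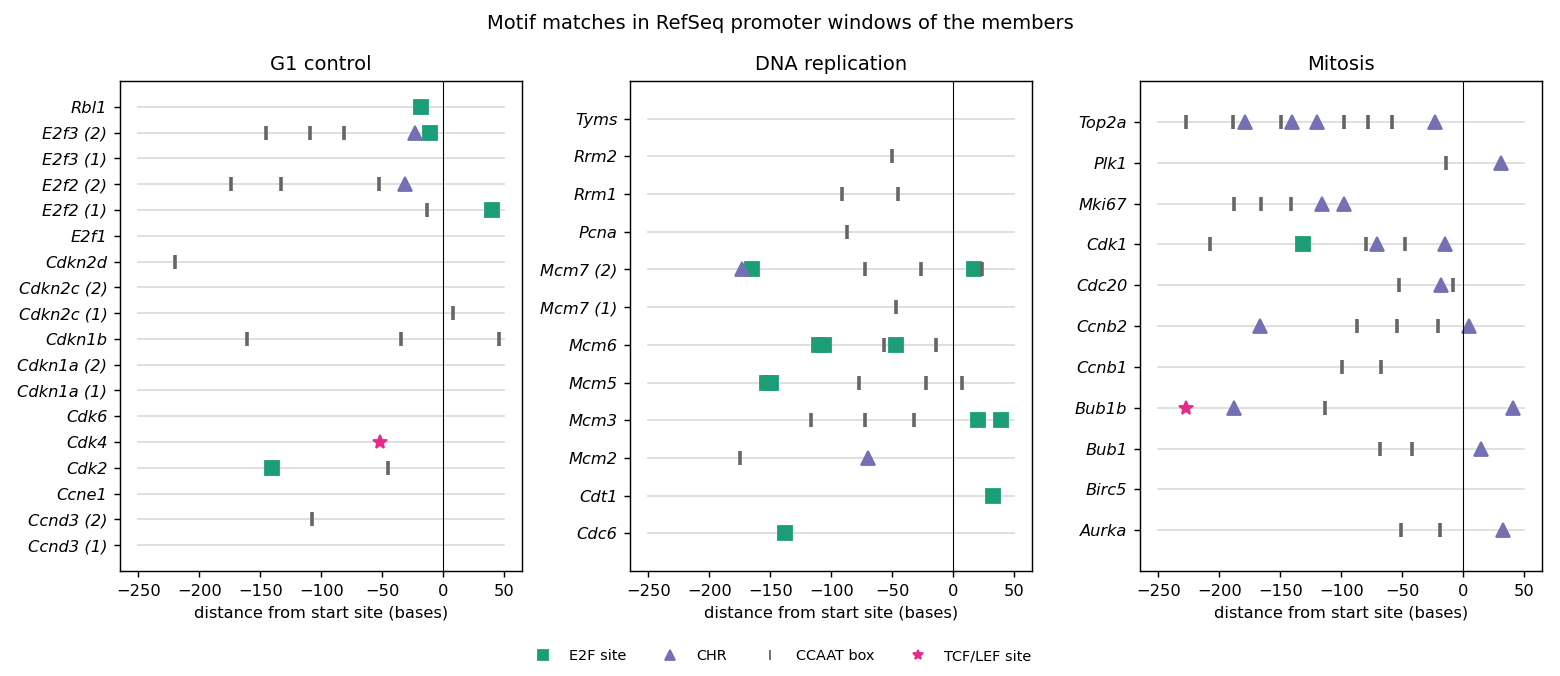
Motif matches in the promoter windows of the members, for G1 control, replication and mitosis. CHR matches are most frequent in mitotic members, at 81.8%, and E2F sites in replication members, at 54.5%.

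Libraries of one genotype did not scatter around their mean independently from member to member. WT replicate 2 was the highest WT library in 32 of 42 members (76.2%), against 43.4% of all loci averaging 5 FPKM or more, and WT replicate 3 the lowest in 28 (66.7%), against 48.3%. Nlk-KO replicate 2 was the lowest of its genotype in 30 members (71.4%), against 51.9%, and in 13 of 13 of the replication genes. Many members were thus high or low in the same library, and the part of this in the differences between genotypes was not tested. The spread itself was small, with a median coefficient of variation of 4.05% in WT and 3.45% in Nlk-KO cells, against 3.68% and 3.62% over the same loci.

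Further genes of the same processes were called in both directions. Of 35 other genes of G1 control tested, 2 were called higher and 4 lower (17.1%, against 37.1% of all loci, 18.6% higher and 18.5% lower), with a median of -0.01. The largest difference among them was that of Cdkn1c, which encodes the inhibitor p57, at 0.793, 0.662 and 0.738 FPKM in WT and 1.65, 1.77 and 1.67 FPKM in Nlk-KO libraries. Cdkn1c was low in both genotypes and higher in each Nlk-KO library, by 1.12 (limma adjusted p = 0.000261). The repressor E2F genes E2f8 and E2f7 were called in opposite directions, at 0.27 and -0.27, and Lin54, a subunit of the MuvB complex, was lower at -0.18.

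Of 53 other replication genes, 5 were called higher and 12 lower (32.1%), with a median of -0.04, and with chromosome medians removed 3 were called higher and 8 lower. The largest differences were those of Rfc5, a subunit of the clamp loader, at -0.41, Orc4 of the origin recognition complex at 0.35, Mcm9 at -0.35 and the nuclease-helicase Dna2 at -0.27. Orc4 is on chromosome 2, and Mcm9 and Dna2 are on chromosome 10. Of 68 other mitotic genes, 10 were called higher and 7 lower (25%), with a median of 0.02. Here the phosphatase gene Cdc25b differed by 0.35, the cytokinesis gene Racgap1 by -0.28 and the spindle genes Tpx2 and Kif18a by 0.26 each. Of these other mitotic genes, 10 lie on chromosome 2, and 7 of them were called higher. With chromosome medians removed, 6 of the 68 were called higher and 7 lower.

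**Figure D5:**
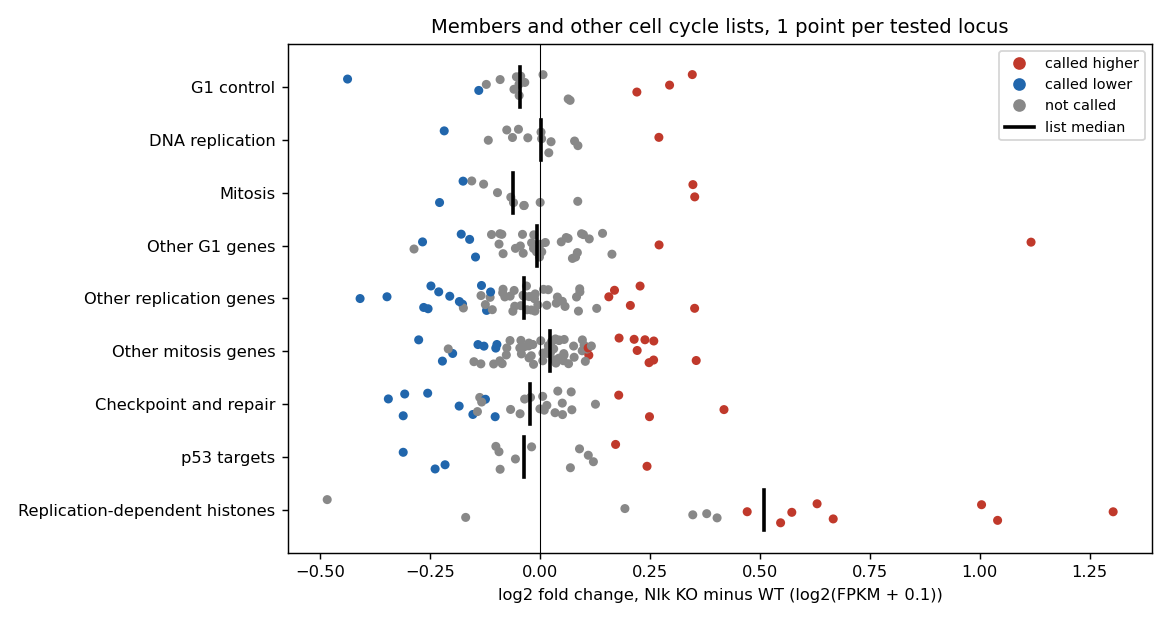
Differences of Nlk-KO minus WT (log2 scale) of the tested genes of each list, with the list's median as a bar. Medians of the cell cycle lists lie near 0, and that of the replication-dependent histone genes lies at 0.51.

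Histone genes differed mostly upward. The replication-dependent histone genes are transcribed in S phase, and their mRNAs normally end in a stem-loop with no poly(A) tail, whereas these libraries were made from poly(A)-selected RNA. Of their 36 loci 14 passed the minimum and 8 of these were called higher and 0 lower, with a median of 0.51, where 18.6% of all loci were called higher. In WT alone 13 of the 36 loci averaged 0.5 FPKM or more, so not every tested locus reached the minimum in WT. With the replicate number as a block 6 were called higher and 1 lower. At a minimum of 5 FPKM 2 loci were left and both were called higher, and with libraries scaled to the same summed FPKM 4 were called. Over all 36 loci, the mean was higher in Nlk-KO cells at 26 and higher in WT at 9. The most abundant of those named is Hist1h2bc, at 11.9, 11.4 and 10.7 FPKM in WT and 22.5, 21.98 and 25.9 FPKM in Nlk-KO libraries. Its levels lay far apart between genotypes, with a difference of 1.04 (limma adjusted p = 4.99e-05). Hist1h1a differed by 1.30 and Hist2h3c1 by 1.00 at levels under 3 FPKM in every library, and the locus shared by Hist1h1e and Hist1h2be by 0.67. Histone genes have near-identical copies among which reads may be divided, so the value of any single one is uncertain. Of the 5 genes of histone mRNA processing tested, 0 were called higher and 1 lower, Slbp, the stem-loop binding protein, at -0.10 (limma adjusted p = 0.0402). This call was lost when any 1 library was left out, and also under the block, under median-ratio or summed scaling, with chromosome medians removed and with a change above 1.2-fold required.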

How the data were processed

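Poly(A) RNA of N2a cells was sequenced in 3 WT and 3 Nlk-KO libraries. In the submitters' notes the tools are TopHat2 (2.1.0) for alignment to GRCm38 and Cufflinks (2.2.1), Cuffnorm and Cuffdiff for expression, and what the authors deposited is an FPKM value per locus and library. Their own means, fold changes, p-values and adjusted p-values stand in the same table and were not used, and neither was a second table holding the same values for fewer loci. Columns were matched by name, with 0 left unmapped.

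Differences were taken on log2(FPKM + 0.1), which understates the change of low genes. A locus needed a mean of 0.5 FPKM or more over the 6 libraries. The test was limma (version 3.58.1 in R 4.3.3), with a variance trend and no block, and Benjamini-Hochberg adjustment covered all 12667 loci, calling those under 0.05. No exact permutation test was run, because 3 against 3 libraries cannot give a p below 0.1. Where a locus holds several genes, its value stands for each of them, and 40 of 42 tested members have a locus to themselves. FPKM gives no read totals and so no counting interval. Relative depth came from loci under 0.2 FPKM, matching whole-read steps to within 0.02 (log2).

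The members and lists were chosen with earlier results of these data known. By the rule for named genes, values by library are given for members called with a difference of 0.3 or more in size, for Nlk, Mki67, Pcna, Ccnd1, Cdkn1a and Myc, and up to 4 called genes with the largest differences are named from each other list. Values by library of other genes, and the markers named without a call, were chosen after their values were seen. The alternatives were pseudocounts of 1 and 0.01, no minimum, a minimum of 5 FPKM, median-ratio scaling, scaling to the same summed FPKM, a required change above 1.2-fold, removal of chromosome medians, the replicate number as a block, and omission of each library. Promoter windows are from RefSeq (GRCm38.p6).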

Additional observations from a re-analysis of the deposited data

How the results depend on the processing

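All counts here are of loci or genes called, against 4697 of all loci, 11 members, and 8 histone genes as first analysed. Scaling to the same summed FPKM over named loci moved the median of all loci to 0.05 and left 923 loci called, 0 members (0 in G1 control, 0 in replication and 0 in mitosis), 1 other gene of G1 control, 0 other replication, 0 other mitotic, 0 checkpoint and repair and 0 p53 target genes, 4 histone and 0 histone processing genes. The median difference was then 0.0219 for all members, 0.0165 for G1 control, 0.065 for replication and 0.0023 for mitosis. The 10 largest named loci hold 10.9% to 34.1% of that sum. Requiring more than 1.2-fold left 1069 loci (618 higher and 451 lower), 1 member (Ccnd1), 1 in G1 control, 0 in replication and 0 in mitosis, and 1, 0, 0, 1 and 0 of the other G1, other replication, other mitotic, checkpoint and p53 lists, with 4 histone and 0 processing genes. With chromosome medians removed, 1 replication member, 11 other replication, 2 p53 target and 0 processing genes were called, and the mitotic median was -0.006. At 5 FPKM or more 2 histone genes were called, and under median-ratio scaling 0 processing genes.

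Same-numbered libraries did not deviate together (correlations of 0.0374, 0.0599 and -0.1319), and other pairs ran from -0.1886 to 0.1883. With so few libraries this cannot tell whether those of the same number were prepared together. The replicate block gave 4038 loci and 10 members, with 7 checkpoint and 0 processing genes, and ended the call of Cdc20 (adjusted p = 0.0786). Leaving out 1 library gave 3533 to 4539 loci, 9 to 14 members, 3 to 6 in G1 control, 2 to 3 in replication, 3 to 5 in mitosis, 5 to 7, 12 to 16 and 12 to 18 in the other G1, replication and mitotic lists, 7 to 10 checkpoint, 3 to 4 p53 target, 6 to 8 histone and 0 to 0 processing genes.

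Differences near 0 turned sign, none of them called with all libraries and the first settings. With summed scaling these were Cdk4 0.0091, Cdkn2d 0.015, Cdkn1b 0.0149, Ccne2 0.0029, Cdk2 0.0279, Rb1 0.018, Cdc6 0.0345, Mcm2 0.0136, Rrm2 0.0001, Mki67 0.0023, Top2a 0.0631, Ccnb1 0.0268 and Plk1 0.0258. With chromosome medians removed they were Cdk4 0.15, Cdk2 0.17, Rbl1 -0.12, Cdc6 0.0326, Rrm1 -0.0076, Top2a 0.0608, Ccnb1 0.0193, Cdk1 0.0757 and Aurka -0.10, and with median-ratio scaling Top2a 0.0071. With 1 library left out, the ranges that crossed 0 were Cdk2 -0.0657 to 0.0245, E2f3 -0.0092 to 0.0314, Mcm4 -0.0294 to 0.0411, Mcm5 -0.0602 to 0.0464, Tyms -0.0404 to 0.0728, Top2a -0.0397 to 0.0494, Ccnb1 -0.066 to 0.0031 and Plk1 -0.0956 to 0.0039. The causes were not tested. Depth limits the low histone genes and Cdkn1c more than the members, whose mean levels start at 7.64 FPKM.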

Other observations

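Of 29 checkpoint and repair genes tested, 3 were called higher and 8 lower in Nlk-KO cells, which is 37.9%, against 37.1% of all loci. Their median difference was -0.02, and 13 of the 29 lay above 0. With the replicate number as a block, and likewise without Nlk-KO replicate 3, 3 were called higher and 4 lower. With chromosome medians removed, 2 were called higher and 6 lower. H2afx, the histone variant phosphorylated at DNA breaks, was the highest at 0.42 (limma, adjusted p = 0.000168), but its locus also holds Dpagt1. Brca2, a gene of homologous recombination, stood at 5.09, 5.14 and 5.38 FPKM in WT and at 4.09, 4.23 and 3.90 FPKM in Nlk-KO libraries, lower by -0.35 (limma, adjusted p = 0.00245). The checkpoint kinase gene Chek2 and Mdm2, the ligase that degrades p53, both differed by -0.31, and Mdm2 is on chromosome 10.

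Of 14 p53 target genes tested, 2 were called higher and 3 lower (35.7%, against 37.1% of all loci), with a median of -0.04. Their differences ran from -0.31 to 0.24. Leaving out WT replicate 1, WT replicate 2, or replicate 1 or 2 of the knockout took the 5 calls to 3, and removing chromosome medians took them to 2. Of the 3 lower calls, 2 are on chromosome 10. Bax, which promotes apoptosis, differed by 0.24, Plk3 by -0.24 and Sesn1 by -0.22, while the p21 gene Cdkn1a, described above, was not called.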
